A study of Rattus norvegicus with 10 samples.

Results

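The genes described here code for the proteasome, measured in RNA of rat mammary gland on 3 diets. They were chosen by name: a gene counted if its symbol in the platform annotation began with Psma, Psmb, Psmc, Psmd, Psme, Psmf or Psmg and a digit, and the immunoproteasome subunits Psmb8, Psmb9 and Psmb10 were left out. The rule used no measured value, apart from taking the brightest probe set where a gene had several. It gave 40 of the 10411 genes that had a probe set of their own. A probe set is the group of short oligonucleotides that reads 1 transcript, and its value here is the MAS5 signal, an intensity on a linear scale. Of the 40 genes, 38 code for subunits, activators, an inhibitor or assembly chaperones of the proteasome. Psmc3ip and Psme3ip1 met the rule by name only, since they code for proteins that bind a proteasome component, and they are kept as a class of their own.

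Female Sprague-Dawley rats had been fed 1 of 3 purified diets and were studied at postnatal day 50, an age at which the rat gland is still forming ducts and end buds. The study holds 4 arrays of the SPI diet, replicates 2, 3, 4 and 5. It holds 3 arrays of the GEN diet, replicates 1, 3 and 5, and 3 arrays of the CAS diet, replicates 1, 2 and 3. SPI is soy protein isolate and CAS is casein, the milk protein of the control diet, as these short names are used in this field. GEN stands for genistein, an isoflavone of soy and a ligand of oestrogen receptors. Doses and diet compositions are not stated in these sources. The RNA on an array came from 2 pooled animals, except that the labelling protocol of CAS 3 gives 7 animals. Several labelled targets were made from a pool, per the protocols, and which arrays share one is not stated, so the p-values measure the spread between these arrays, which may be partly technical.

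The material is given as epithelial cells in one label and as whole gland in the protocols, while colon appears in the text on the design. On the 10 arrays the luminal keratins Krt8 and Krt18 had signals of 1409 to 5260 and 1508 to 3950, so both were measured in every sample. The adipocyte gene Fabp4 had signals of 10206 to 16003, the collagen gene Col1a1 5941 to 20511, and the muscle gene Ckm 155 to 1362. The RNA therefore held transcripts typical of fat and stroma as well as of epithelium. Ckm had a median signal of 232, not far above the lowest geometric mean of a tested probe set, 162. Whether muscle transcripts were present on every array was not tested. In such bulk samples, fewer cells of a type and less RNA per cell cannot be told apart. All arrays had been scaled to the same trimmed mean, 500.1 on each, so a change in total RNA would not be visible.

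The proteasome degrades proteins that have been tagged with ubiquitin. Its 20S core is a barrel of outer rings of alpha subunits and inner rings of beta subunits, and the beta subunits hold the active sites. The 19S particle caps the core: a ring of ATPases unfolds the substrate and pulls it in, and non-ATPase subunits bind the ubiquitin chain and remove it. Cells that make much protein, such as secretory epithelium, depend on this turnover, and transcription of the subunit genes is raised together through the factor Nfe2l1 when proteasome activity is inhibited.

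None of the 40 genes passed the test for a difference between diets. limma was fitted to all 9520 tested probe sets with the Benjamini-Hochberg adjustment over all of them. An adjusted p under 0.05 was reached by 0 of 40 genes on SPI or GEN against CAS, and by 0 of 40 on SPI against GEN. The share over all tested probe sets was 0% in each of the 3 comparisons. The test for a difference among any of the 3 diets (limma's moderated F test) also gave 0 of 40, with 0% of all probe sets. The smallest adjusted p of any of the 40 genes was 0.987 (SPI against CAS), 0.825 (GEN against CAS) and 0.617 (SPI against GEN). All 40 genes lay above the intensity filter, which removed the dimmest probe sets before the test.

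At an unadjusted p under 0.05, limma marked 1 of 40 genes in each comparison. For SPI against CAS it was Psmc4, where 4.82% of all tested probe sets passed. For GEN against CAS it was again Psmc4, where 5.89% passed, and these comparisons share the CAS arrays. For SPI against GEN it was Psmc2, where 7.95% passed. In the F test 0 of 40 genes had an unadjusted p under 0.05, against 6.4% of all tested probe sets. A share of 1 in 40 is 2.5%, below the background in each case.

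A few genes had signals that did not overlap between diets, and their share was above the background once and below it in the other 2 comparisons. For SPI against CAS, 3 of 40 genes had groups that did not overlap (Psmb3, Psmc4 and Psmd7, all higher on SPI), against 4.6% of all tested probe sets. For GEN against CAS there were 2 of 40 (Psma3 and Psmb3, both higher on GEN), against 11.1%. For SPI against GEN there were 3 of 40 (Psmc2 and Psme2 higher on SPI, Psma3 lower), against 8.5%.

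The intervals show which differences remain possible for each gene. The 95% interval of the log2 difference lay wholly within 1.5-fold in either direction for 32 of 40 genes between SPI and CAS, where 56.6% of all tested probe sets did so. Between GEN and CAS this held for 31 of 40 genes, beside 45.8%, and between SPI and GEN for 29 of 40, beside 50.8%. The distance from an estimate to either end of its interval had a median over the 40 genes of 0.34 log2 units (SPI and CAS), 0.36 (GEN and CAS) and 0.34 (SPI and GEN). Over all tested probe sets the median distance was 0.41, 0.44 and 0.41. The shares above were not matched for signal, and the 1780 brightest of the 7119 tested genes held 19 of the 40. They therefore do not show that proteasome genes were steadier than other genes of similar signal. These intervals are not adjusted for the number of probe sets.

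**Figure D1:**
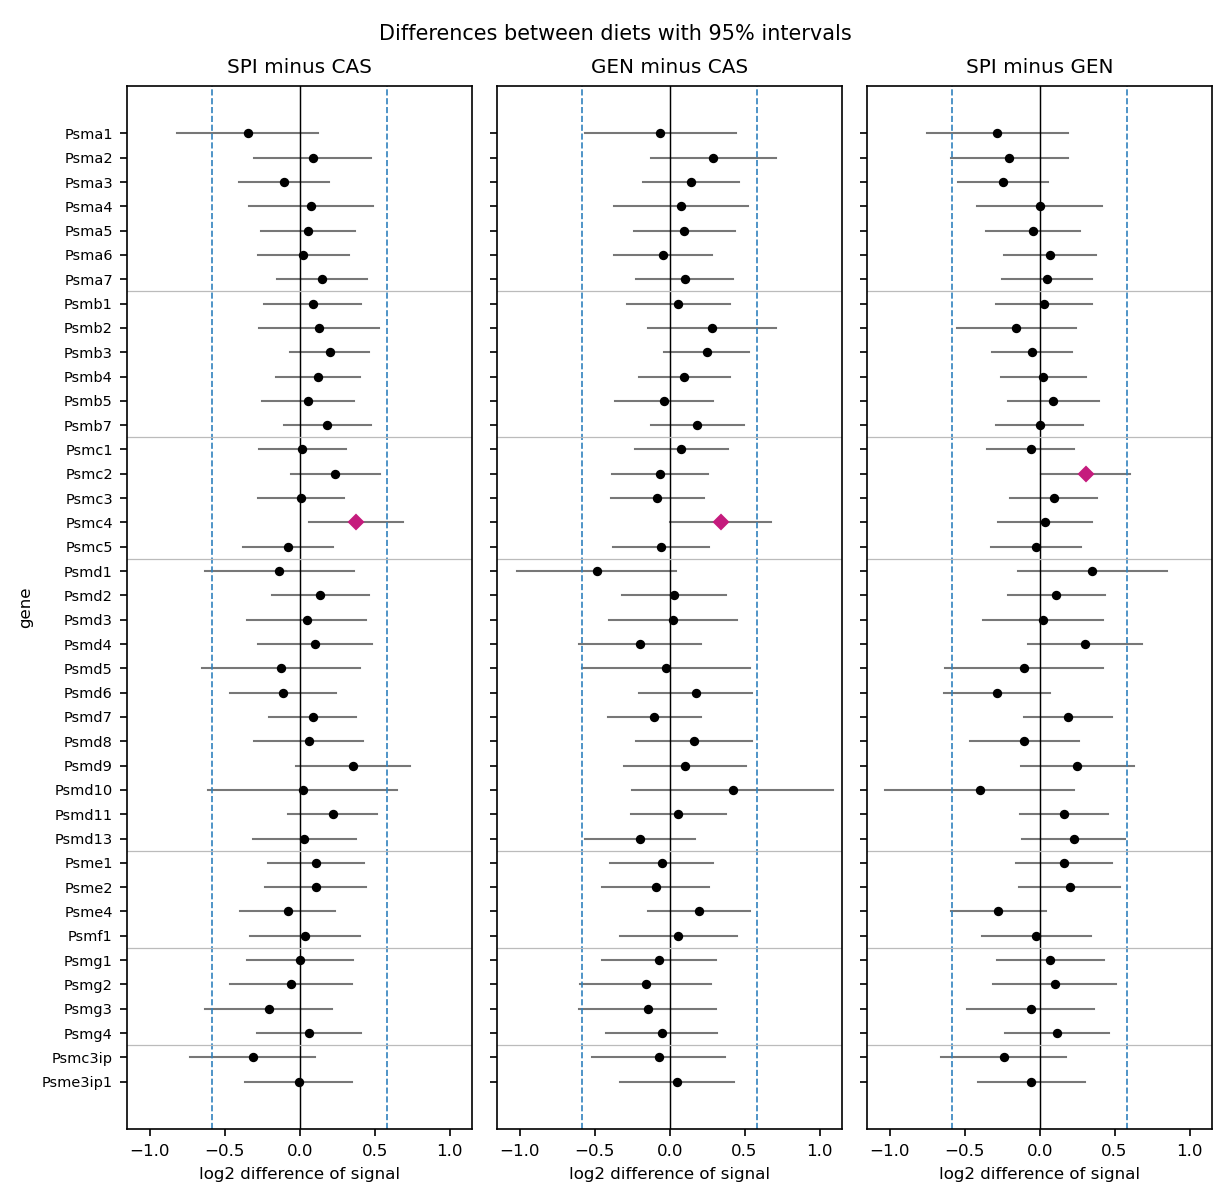
Log2 difference of signal between diets (horizontal axis) for each of the 40 proteasome genes (rows, by role), with its 95% interval from limma, for SPI minus CAS, GEN minus CAS and SPI minus GEN. Dashed lines mark 1.5-fold in either direction, and diamonds mark an unadjusted p under 0.05, which only Psmc4 and Psmc2 reached. Most points lie close to 0, and the widest intervals belong to Psmd1, Psmd5 and Psmd10.

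Differences of the 40 genes were small and mostly on the positive side of 0 for the soy protein diet. For SPI minus CAS the median log2 difference was 0.05, with 29 of 40 positive, and over all 7119 tested genes it was -0.01, with 48.3% positive. For GEN minus CAS the median was 0.04 with 22 of 40 positive, beside -0.02 and 46.2% over all tested genes. For SPI minus GEN it was 0.02 with 22 of 40 positive, beside 0.01 and 51.1%; with each array centred on its median log2 signal the count was 30 of 40, and the median of all tested genes was 0.07. The single differences ran from -0.35 to 0.38 for SPI minus CAS, from -0.49 to 0.42 for GEN minus CAS and from -0.40 to 0.35 for SPI minus GEN. Without Psmc3ip and Psme3ip1 the positive counts were 29, 21 and 22 of 38. The count for SPI minus CAS turned on single arrays of both diets. It was 21 of 40 without CAS 2, 32 of 40 without CAS 3 and 23 of 40 without SPI 5. For GEN minus CAS the count was 16 of 40 without CAS 2 and 33 of 40 without CAS 3.

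The 19S ATPases hold the genes with the smallest p. Psmc4, which codes for an ATPase of the ring that feeds substrate into the core, had signals of 1671, 1379, 1405 and 1299 on the SPI arrays and 1160, 1573 and 1496 on the GEN arrays. On the CAS arrays Psmc4 had signals of 1189, 1088 and 1039. All 4 SPI arrays lay above all 3 CAS arrays, while GEN 1 lay inside the CAS range. Psmc4 averaged 1438 ± 162 on SPI (SD, n = 4), 1410 ± 219 on GEN and 1105 ± 76.4 on CAS (SD, n = 3 each). The log2 difference was 0.38 ± 0.146 for SPI minus CAS (SE, adjusted p = 0.987 in limma). For GEN minus CAS it was 0.34 ± 0.156 (adjusted p = 0.825 in limma), and both values rest on the same CAS arrays. For SPI minus GEN it was 0.04, with a 95% interval of -0.28 to 0.35.

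Psmc2 codes for another ATPase of the same ring. It had signals of 3137, 2891, 2731 and 2946 on the SPI arrays, 2218, 2231 and 2671 on the GEN arrays, and 2089, 2459 and 2960 on the CAS arrays. The SPI arrays all lay above the GEN arrays, and the CAS arrays spanned most of the range of both. The log2 difference for SPI minus GEN was 0.31 ± 0.139 (SE, adjusted p = 0.617 in limma). The other ATPases had smaller differences: Psmc1 ran from -0.06 to 0.08 over the 3 comparisons, Psmc3 from -0.08 to 0.09, and Psmc5 from -0.08 to -0.02. Psmc1 and Psmc5 were also among the steadiest of the 40 genes, with within-diet standard deviations of 0.124 and 0.128 log2 units. The class median was 0.02 for SPI minus CAS, -0.06 for GEN minus CAS and 0.04 for SPI minus GEN, so Psmc4 and Psmc2 did not stand for the class.

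**Figure D2:**
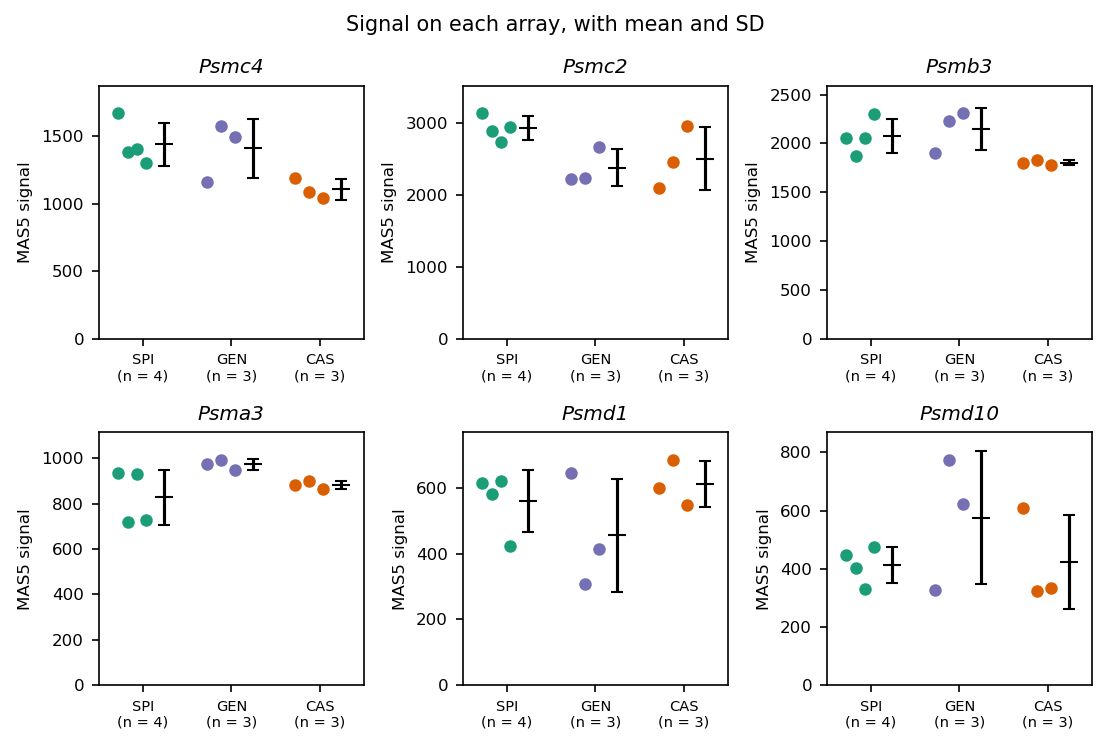
MAS5 signal (vertical axis, linear, from 0) of 6 proteasome genes on each array, with SPI (n = 4) left, GEN (n = 3) in the middle and CAS (n = 3) right; points are arrays in replicate order, and the bar beside them is the mean with its SD. Psmc4 and Psmb3 lie lowest and closest together on CAS, while Psmd1 and Psmd10 each have arrays of 1 diet far apart.

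Promoter sequence was looked up for the 40 genes in RefSeq (build GRCr8), taking the 250 bases before the annotated start; 38 matched, and Psma7 and Psmd6 are named only. Psma3 and Psmb3 both had groups that did not overlap in 2 comparisons, and only Psma3 was picked. The following are shown as examples: Psmc4 and Psmc2 with the smallest p, Psma3, and Psmd9, picked for its 2 antioxidant response element cores. Each is written 5′ to 3′ along its gene, and capitals mark a match, on either strand, to TGACNNNGC or to CCAAT.
Psmc4 (GRCr8, chr1:92485061-92485310, minus strand): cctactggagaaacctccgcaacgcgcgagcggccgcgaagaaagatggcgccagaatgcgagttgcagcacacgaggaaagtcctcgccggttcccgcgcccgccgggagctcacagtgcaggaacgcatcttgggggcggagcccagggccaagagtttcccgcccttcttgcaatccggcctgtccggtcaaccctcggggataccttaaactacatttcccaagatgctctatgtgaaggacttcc
Psmc2 (GRCr8, chr4:14162391-14162640, minus strand): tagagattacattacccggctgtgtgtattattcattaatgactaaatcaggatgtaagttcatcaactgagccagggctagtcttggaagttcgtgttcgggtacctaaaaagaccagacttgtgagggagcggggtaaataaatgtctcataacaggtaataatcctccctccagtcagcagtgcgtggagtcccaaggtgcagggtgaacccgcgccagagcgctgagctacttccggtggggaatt
Psma3 (GRCr8, chr6:95219499-95219748, plus strand): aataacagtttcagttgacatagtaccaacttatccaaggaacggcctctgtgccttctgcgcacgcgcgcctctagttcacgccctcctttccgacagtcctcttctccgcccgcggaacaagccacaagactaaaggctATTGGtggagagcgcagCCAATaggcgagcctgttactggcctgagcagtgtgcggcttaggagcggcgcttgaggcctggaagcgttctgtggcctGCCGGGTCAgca
Psmd9 (GRCr8, chr12:39018265-39018514, minus strand): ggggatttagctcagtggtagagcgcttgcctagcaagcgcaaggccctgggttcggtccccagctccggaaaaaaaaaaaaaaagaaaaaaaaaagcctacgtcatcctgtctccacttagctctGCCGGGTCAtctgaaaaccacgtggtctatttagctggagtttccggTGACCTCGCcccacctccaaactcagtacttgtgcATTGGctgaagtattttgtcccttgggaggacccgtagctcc

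TGACNNNGC is the core of the antioxidant response element, through which Nfe2l1 and Nfe2l2 act on proteasome genes, and CCAAT is the box bound by the factor NF-Y. The windows of Psmc4 and Psmc2, the genes with the smallest p, hold neither run of letters. The Psma3 window holds 1 antioxidant core and 2 CCAAT boxes, and the Psmd9 window holds 2 cores and 1 CCAAT box. Over the 38 genes, TGACNNNGC on either strand was found in 6 windows (15.8%), beside 13.1% of the 5970 tested genes with a promoter and 10.2% of all 27457 promoters of the same length. CCAAT was found in 20 windows (52.6%), beside 36.0% and 34.3%. The GC box GGGCGG was found in 27 windows (71.1%), beside 61.7% and 32.4%. Motifs were searched on both strands, and matches that share bases were each counted. These matches describe letters in a short window and do not show binding. For SPI minus CAS, GEN minus CAS and SPI minus GEN, the 6 genes with TGACNNNGC had median log2 differences of -0.01, 0.12 and -0.03. The 32 without it had 0.06, -0.00 and 0.02. For GEN minus CAS the 6 genes ran from -0.49 (Psmd1) to 0.28 (Psmb2). With CCAAT the 3 medians were 0.04, 0.07 and -0.05, and without it 0.06, -0.04 and 0.08. With the GC box they were 0.05, -0.02 and -0.00, and without it 0.06, 0.05 and 0.09. Whether a motif goes with a diet difference was not tested.

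The alpha subunits form the outer rings of the core and gate its entrance. Of the 7 measured, 5 had a positive difference for SPI minus CAS, 5 for GEN minus CAS and 3 for SPI minus GEN, with medians of 0.05, 0.10 and -0.05. These counts ran from 2 to 5, 3 to 7 and 1 to 4 of 7 when single arrays were left out. Psma3 had signals of 937, 719, 929 and 726 on SPI, 977, 995 and 949 on GEN, and 882, 899 and 867 on CAS. The 3 GEN arrays lay above every SPI and every CAS array, and the SPI arrays fell into a high and a low pair on either side of CAS. The Psma3 difference was 0.14 ± 0.149 for GEN minus CAS (SE, adjusted p = 0.882 in limma) and -0.25 ± 0.139 for SPI minus GEN (adjusted p = 0.661 in limma). Psma3 has a near-identical copy, Psma3l, with which another probe set is shared, so signal from the copy cannot be told apart.

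Psma1 had the most negative difference of the alpha subunits. Its signals were 1303, 1146, 858 and 1281 on SPI, 1007, 1696 and 1533 on GEN, and 1131, 1470 and 1796 on CAS. SPI 4 was the lowest of the 10 arrays and the other SPI arrays lay within the range of both other diets. The Psma1 difference was -0.35 ± 0.218 for SPI minus CAS and -0.28 ± 0.218 for SPI minus GEN (SE, adjusted p = 0.987 and 0.741 in limma). Leaving out single arrays took the first from -0.52 (without CAS 1) to -0.19 (without CAS 3) and the second from -0.51 (without GEN 1) to -0.13 (without GEN 3). Psma2 reached 0.29 ± 0.193 for GEN minus CAS, with GEN 3 highest at 2555 and GEN 1 at 1571, below 2 of the CAS arrays. It was 0.13 without GEN 3 and 0.48 without GEN 1. Psma7 had the most positive alpha difference for SPI minus CAS, 0.15 ± 0.139, or 0.05 without CAS 2, and Psma4, Psma5 and Psma6 stayed between -0.05 and 0.10 in all 3 comparisons.

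The beta subunits form the inner rings. All 6 measured had a positive difference for SPI minus CAS (median 0.13) and 5 of 6 for GEN minus CAS (median 0.14), while SPI minus GEN had 3 of 6 positive and a median of 0.01. The comparisons with CAS use the same CAS arrays, and no single gene passed the test. When single arrays were left out, the count was 5 or 6 of 6 for SPI minus CAS (5 without CAS 1), 4 to 6 for GEN minus CAS and 1 to 5 for SPI minus GEN. Psmb3, a structural beta subunit, had signals of 2057, 1876, 2060 and 2298 on SPI, 1902, 2227 and 2311 on GEN, and 1797, 1829 and 1777 on CAS. All SPI and all GEN arrays lay above the CAS arrays, which were close together. The Psmb3 difference was 0.20 ± 0.123 for SPI minus CAS (SE, adjusted p = 0.987 in limma) and 0.25 ± 0.131 for GEN minus CAS (adjusted p = 0.825 in limma). Psmb3 had the smallest within-diet standard deviation of the 40 genes, 0.112 log2 units.

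Psmb7 and Psmb5 are the measured subunits with active sites of the standard core: Psmb7 carries the trypsin-like and Psmb5 the chymotrypsin-like activity. Psmb7 had signals of 2044, 2214, 2442 and 2141 on SPI, 2538, 2060 and 2057 on GEN, and 2223, 1844 and 1784 on CAS. GEN 1 was the highest array and CAS 1 lay among the SPI arrays, so the diets overlapped. Its differences were 0.18 for SPI minus CAS, 0.19 for GEN minus CAS and -0.00 for SPI minus GEN, with a 95% interval of -0.29 to 0.29 for the last. Psmb5 had signals of 2577, 2475, 2764 and 2714 on SPI, 2138, 2416 and 2913 on GEN, and 2194, 2513 and 2942 on CAS. The SPI arrays lay inside the span of both other diets, and the differences were 0.06, -0.04 and 0.09. Psmb2, a structural subunit, reached 0.28 ± 0.197 for GEN minus CAS with GEN 5 highest at 2679, and -0.15 ± 0.184 for SPI minus GEN. Without GEN 5 these Psmb2 values were 0.11 and 0.02. Psmb1 and Psmb4 stayed between 0.02 and 0.12 in all 3 comparisons. The third active subunit, Psmb6, was read only by a probe set that names a second gene and was not analysed here.

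The immunoproteasome subunits Psmb8, Psmb9 and Psmb10 replace the active beta subunits under interferon and lie outside the rule. None passed the test. Psmb10 had signals of 957, 989, 1063 and 854 on SPI, 734, 795 and 773 on GEN, and 913, 759 and 1149 on CAS. All SPI arrays lay above the GEN arrays, and the difference for SPI minus GEN was 0.33 ± 0.154 (SE, adjusted p = 0.630 in limma). The differences for SPI minus CAS were 0.20 for Psmb8, 0.10 for Psmb9 and 0.05 for Psmb10. For GEN minus CAS they were 0.12, 0.24 and -0.27.

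The Psmd genes include the 3 most variable of the 40. They code for non-ATPase subunits of the 19S particle and for its assembly chaperones Psmd5, Psmd9 and Psmd10, all counted here. Of 12 genes, 9 had a positive difference for SPI minus CAS (median 0.05), 7 for GEN minus CAS (median 0.03) and 8 for SPI minus GEN (median 0.14). Psmd1, a large scaffold subunit at the base of the particle, had signals of 618, 582, 623 and 424 on SPI, 647, 308 and 414 on GEN, and 601, 688 and 548 on CAS. GEN 1 lay among the CAS arrays while GEN 3 and GEN 5 lay below all of them, and SPI 5 was close to GEN 5. The Psmd1 difference was -0.49 ± 0.245 for GEN minus CAS (SE, adjusted p = 0.825 in limma). Leaving out single arrays took it from -0.77 without GEN 1 to -0.24 without GEN 3. Psmd10, a chaperone of 19S base assembly also known as gankyrin, had signals of 447, 402, 330 and 474 on SPI, 327, 775 and 623 on GEN, and 610, 323 and 335 on CAS. GEN 3, GEN 5 and CAS 1 stood above the other 7 arrays, so the high arrays came from 2 diets. Its difference was 0.42 ± 0.311 for GEN minus CAS, 0.78 without GEN 1 and 0.16 without GEN 3. Psmd10, Psmd5 and Psmd1 had the largest within-diet standard deviations of the 40 genes, 0.468, 0.370 and 0.347 log2 units.

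Psmd9, another chaperone of base assembly, had signals of 413, 506, 570 and 443 on SPI, 412, 470 and 337 on GEN, and 331, 360 and 443 on CAS. SPI 3 and SPI 4 were the highest arrays, while SPI 2 and SPI 5 lay inside the range of CAS. The Psmd9 difference was 0.35 ± 0.175 for SPI minus CAS (SE, adjusted p = 0.987 in limma). Psmd7, the partner of the deubiquitinating subunit, had signals of 1075, 1066, 1076 and 1068 on SPI, 1093, 784 and 969 on GEN, and 1027, 981 and 1019 on CAS. The SPI arrays lay just above the CAS arrays and were nearly equal, and the difference for SPI minus CAS was 0.09, with a 95% interval of -0.20 to 0.38. Psmd4, a ubiquitin receptor of the particle, differed by 0.30 ± 0.177 for SPI minus GEN (adjusted p = 0.672 in limma), with GEN 5 lowest at 614, and by 0.10 without that array. Psmd6, a lid subunit, differed by -0.29 ± 0.163 for SPI minus GEN (adjusted p = 0.661 in limma). Psmd11, also of the lid, differed by 0.22 ± 0.137 for SPI minus CAS on its brightest probe set and by 0.01 on its other one. The remaining genes, Psmd2, Psmd3, Psmd5, Psmd8 and Psmd13, stayed between -0.20 and 0.23.

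The activators open the core without the 19S cap. Psme1 and Psme2 are the interferon-inducible subunits of the PA28 ring, Psme4 is a nuclear activator of the core, and Psmf1 is an inhibitor in the test tube. Psme2 had signals of 1829, 2136, 1962 and 2087 on SPI, 1657, 1803 and 1768 on GEN, and 1690, 1550 and 2446 on CAS. All SPI arrays lay above all GEN arrays and CAS 3 was the highest array of all. The Psme2 difference was 0.20 ± 0.155 for SPI minus GEN (SE, adjusted p = 0.747 in limma). Psme4 had signals of 853, 894, 832 and 989 on SPI, 1100, 947 and 1203 on GEN, and 1109, 895 and 840 on CAS. SPI 5 lay above GEN 3, so SPI and GEN overlapped, and the difference was -0.28 ± 0.146 for SPI minus GEN (adjusted p = 0.653 in limma). The other 2 probe sets of Psme4 gave -0.27 and -0.45 for SPI minus GEN, in the same direction. Psme1 differed by 0.11, -0.05 and 0.16 for SPI minus CAS, GEN minus CAS and SPI minus GEN, and Psmf1 by 0.04, 0.06 and -0.02. Psme3, the nuclear PA28 subunit, was read only by probe sets naming several genes and was not analysed here.

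The assembly chaperones Psmg1, Psmg2, Psmg3 and Psmg4 build the alpha ring. All 4 had a negative difference for GEN minus CAS (median -0.11), between -0.16 for Psmg2 and -0.05 for Psmg4, each smaller than its standard error. That count turned on single arrays: 3 of 4 were positive without CAS 3, where Psmg3 was at 0.11, and 1 of 4 without GEN 1 or without GEN 3. For SPI minus CAS 2 of 4 were positive (median -0.03) and for SPI minus GEN 3 of 4 (median 0.09). Psmg3 had signals of 276, 260, 264 and 278 on SPI, 270, 267 and 308 on GEN, and 262, 258 and 445 on CAS. CAS 3 alone stood apart, and the difference of -0.21 ± 0.197 for SPI minus CAS was 0.05 without it. Of the interacting proteins, Psmc3ip, a partner in meiotic recombination, differed by -0.31 ± 0.193 for SPI minus CAS (SE, adjusted p = 0.987 in limma), or -0.18 without CAS 1. Psme3ip1, which binds Psme3, stayed between -0.06 and 0.05.

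**Figure D3:**
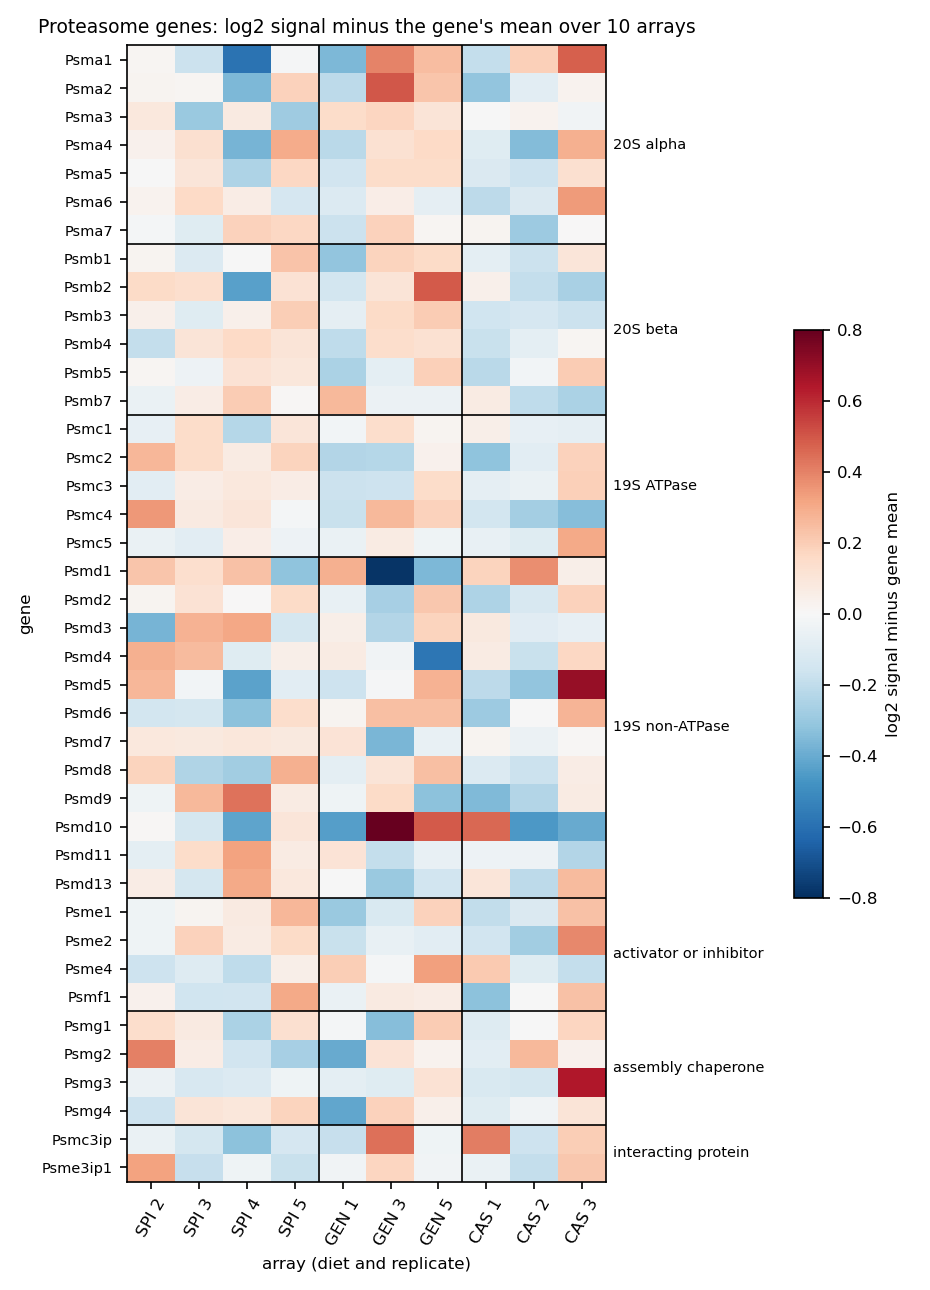
Log2 signal of each proteasome gene (rows, grouped by role) on each array (columns, SPI left, GEN in the middle, CAS right) minus that gene's mean over the 10 arrays; red is above and blue below the mean. Colours do not separate the diets; GEN 1 and CAS 2 are pale blue in most rows, CAS 3 is red in most rows, and Psmd1, Psmd5 and Psmd10 hold the strongest colours.

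Arrays of 1 diet lay further apart than the diet means. The mean log2 signal of the 40 genes was 10.08 ± 0.046 on SPI (SD, n = 4), 10.07 ± 0.096 on GEN and 10.04 ± 0.115 on CAS (SD, n = 3 each). On CAS 3, 30 of 40 genes lay above their own mean over the 10 arrays, while on CAS 2 there were 4 and on CAS 1 there were 12. On GEN 1, 9 of 40 lay above, while GEN 3 and GEN 5 had 23 and 28. The 4 SPI arrays had 23, 23, 21 and 28 in replicate order. Over all tested genes these shares lay between 47.3% and 61.0%, and the highest was also CAS 3, the array whose protocol gives 7 animals. CAS 3 was the highest of the 10 arrays for 9 of the 40 genes, beside 19.5% of all tested genes. SPI 4 was the lowest for 11 of them, beside 16% of all tested genes, and its beta-actin 3′ to 5′ ratio, a measure of RNA integrity, was 7.77 against 2.83 to 5.22 on the other arrays. With the log2 of that ratio as a covariate in limma, 0 of 40 genes had an adjusted p under 0.05 in any comparison. The positive counts were then 29 of 40 for SPI minus CAS, 18 for GEN minus CAS and 26 for SPI minus GEN, and the median for GEN minus CAS was -0.02 in place of 0.04. Among single genes, Psma1 moved to -0.10 and Psmd6 to -0.17 for SPI minus GEN, and Psmb2 to 0.17 and Psma2 to 0.18 for GEN minus CAS.

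**Figure D4:**
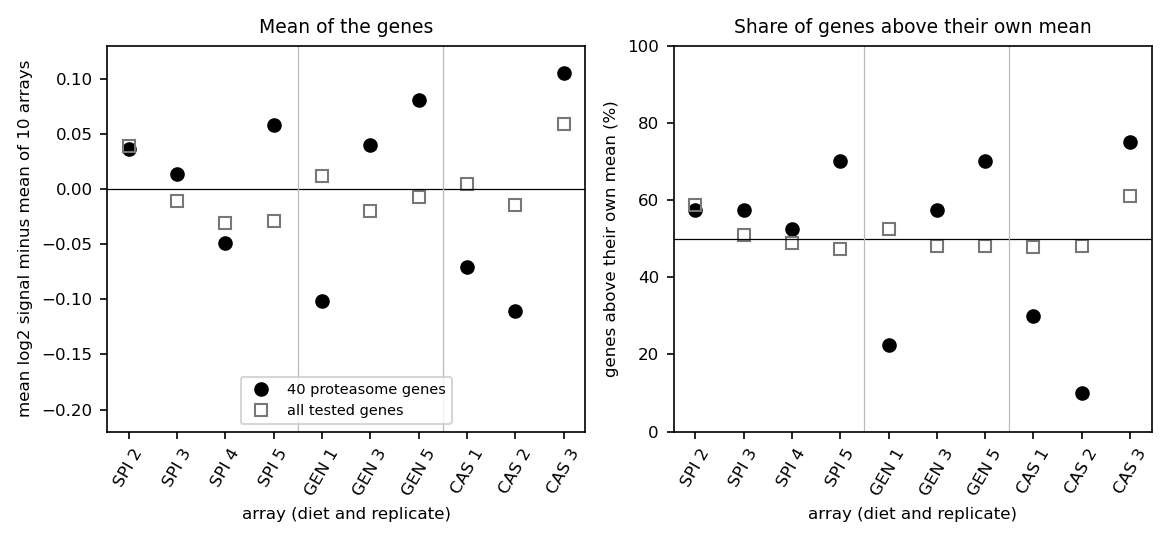
Left, mean log2 signal of the 40 proteasome genes (filled circles) and of the 7119 tested genes (open squares) on each array, minus the mean over the 10 arrays; right, the percentage of genes above their own mean over the arrays. SPI is left, GEN in the middle and CAS right. The values of the 40 proteasome genes range more widely than those of all genes, with GEN 1 and CAS 2 lowest and CAS 3 highest. A mean over fewer genes varies more, and the scaling holds the mean of all genes nearly level. No other sets of 40 genes were compared.

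Once the diet means were removed, pairs of core genes had a higher median correlation than pairs of cap genes. The median Pearson correlation over the 10 arrays was 0.17 for the 780 pairs of the 40 genes and 0.02 for all pairs of tested genes. It was 0.38 for the 78 pairs of 20S subunits and -0.02 for the 136 pairs of Psmc and Psmd genes. The Psmd genes include the assembly chaperones Psmd5, Psmd9 and Psmd10, and without these 3 the median over 91 pairs of 19S subunits was -0.03. Pairs of a 20S with a 19S subunit had a median of 0.11 (182 pairs without the chaperones). All pairs share the same arrays and scaling, so these values are a description and carry no p. The pairs were not matched for signal. Signals ran from 704 to 5086 for alpha and 1412 to 4657 for beta subunits. They ran from 567 to 3137 for the ATPases and 290 to 1906 for the non-ATPase genes. The part of signal level in these correlations was not tested. Psme1, Psmb1 and Psma5 followed the other genes best, with median correlations of 0.49, 0.48 and 0.47. Psmb7, Psmd1 and Psmd11 ran against most of them, at -0.40, -0.38 and -0.38. The within-diet standard deviation of the 40 genes had a median of 0.199 log2 units, and that of all tested genes 0.238. Among the 1780 brightest of the tested genes, which held 19 of the 40, the medians were 0.172 for the proteasome genes and 0.201 for all.

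Other genes, of the ubiquitin and proteasome pathway and of protein folding, were taken from lists. These were accessory and assembly factors, shuttle and p97 factors, ubiquitin, related proteins and their enzymes, transcription factors of the proteasome genes and the immunoproteasome. The list for protein folding was the cytosolic chaperonin. Of 67 listed genes 50 were tested, and 0 of 50 had an adjusted p under 0.05 in any comparison. At an unadjusted p under 0.05 in limma there was 1 of 50 in each. The share of all tested probe sets was 4.82% (SPI against CAS), 5.89% (GEN against CAS) and 7.95% (SPI against GEN). Hspb1, a small heat shock protein, differed by 0.58 ± 0.148 for SPI minus CAS (SE, adjusted p = 0.582 in limma). Ube2s, a ubiquitin-conjugating enzyme, differed by 0.34 ± 0.132 for GEN minus CAS (adjusted p = 0.825 in limma). Akirin2, which brings proteasomes into the nucleus, differed by -0.52 ± 0.214 for SPI minus GEN (adjusted p = 0.584 in limma). Positive differences numbered 30, 31 and 30 of 50 for SPI minus CAS, GEN minus CAS and SPI minus GEN. The 8 chaperonin genes gave 6, 7 and 2 of these. Over all tested genes 48.3%, 46.2% and 51.1% were positive. The shuttle and p97 factors had 3 of 13 positive for SPI minus CAS and 3 of 13 for GEN minus CAS, and Vcp, the p97 ATPase, was among these with 0.25 and 0.23. Nfe2l1 differed by 0.30 ± 0.159 for SPI minus CAS and 0.23 ± 0.170 for GEN minus CAS (adjusted p = 0.987 and 0.846 in limma).

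Some lists of cell type markers had larger median differences than the proteasome genes, although 0 of their genes passed the adjusted test. The summed signal of the 10 luminal markers was 8439 to 17387 on SPI, 18981 to 24960 on GEN and 13538 to 22910 on CAS. All 10 were lower on SPI than on GEN, with a median log2 difference of -0.69, and 6 of 10 had an unadjusted p under 0.05 in limma. Over all tested probe sets 7.95% did so for SPI against GEN. The summed signal of the 7 milk genes was 25152 to 62324 on SPI, 74343 to 98203 on GEN and 29741 to 74339 on CAS, and 6 of 7 had an unadjusted p under 0.05 for SPI against GEN in limma. That of the 8 macrophage markers was 5231 to 10344 on SPI, 6499 to 11414 on GEN and 7059 to 17612 on CAS. The 5 endothelial markers went the other way: their summed signal was 11703 to 16257 on SPI, 9034 to 12170 on GEN and 9562 to 13774 on CAS. All 5 were higher on SPI than on GEN, with a median of 0.44, and 3 of 5 had an unadjusted p under 0.05 in limma. Of the 6 tested basal and myoepithelial markers 4 were lower on SPI than on GEN (median -0.60). Among these 6, 2 had an unadjusted p under 0.05 in limma. The 4 adipocyte, 2 lymphocyte and 3 Schwann cell markers tested had medians of -0.05, -0.09 and -0.05 for SPI minus GEN. In that comparison 0 of them had an unadjusted p under 0.05 in limma. Against CAS, Ptprc (-1.01 on SPI, -0.77 on GEN), Mbp (0.71 and 1.10) and Cfd (-1.01 on GEN) did, and the others did not. Over all tested probe sets 4.82% (SPI against CAS) and 5.89% (GEN against CAS) did so. Lck, the other lymphocyte marker tested, was at 0.14 and 0.09 against CAS. For SPI minus CAS, 7 of 7 fibroblast markers had a negative difference (median -0.47), as had 5 of 5 tested skeletal muscle markers (median -0.83). For GEN minus CAS the same 5 muscle markers were also all negative (median -0.58). The muscle markers summed to 1967 to 2542 on SPI, 2448 to 2796 on GEN and 2386 to 8113 on CAS. The CAS mean was 4333, so the array at 8113 stood well above the other CAS arrays. How far the muscle differences from CAS rest on that array was not tested. Some markers were dim: the lowest signal of a skeletal muscle marker was 10.6 on SPI, 18.1 on GEN and 4.5 on CAS. Only 5 of the 9 muscle markers summed here passed the intensity filter. Whether single markers were detected was not tested, nor was the part of the marker lists in the proteasome values.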

How the data were processed

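Values are the intensity of each probe set, linear, in 1 table that the authors deposited. The submitters' processing notes name MAS5, whose version is not given in these sources. Of 15923 probe sets, 57 controls were left out. Values under 1 (0.0637%) were set to 1 before log2, and the dimmest 40% of probe sets by mean log2 signal were left out, which left 9520, the lowest with a geometric mean signal of 162. Symbols came from the platform annotation: 12783 probe sets had 1 symbol, 312 several and 2771 none.

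Diets were compared in R 4.3.3 with limma 3.58.1, using lmFit, then eBayes with its trend option (7 residual degrees of freedom), with all 10 arrays in 1 fit and Benjamini-Hochberg adjustment over all tested probe sets. The fit was tested on simulated data. Ranges and standard deviations are over arrays, and the number of arrays limits the precision. Psmc6, Psmd12 and Psmd14 had no probe set of their own in the annotation and were not analysed here.

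Named genes are, per comparison, the 2 of each class with the smallest p, all with an unadjusted p under 0.05 and all whose groups did not overlap, plus the 3 most and 3 least variable. Others are given for completeness, and Psmb10's array values were chosen after they were seen. Members and lists were chosen with earlier results of these data known. Psme3ip1 was set apart only after the annotation had been seen. Floors, filters, normalizations, variance models, probe set averaging, the actin ratio as covariate, the replicate number as a block and each array left out were tried as alternatives. The correlations without the 19S assembly chaperones, and the counts per class with arrays left out, were added after seeing the data.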

Additional observations from a re-analysis of the deposited data

Results flagged for a closer look

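Of the 40 genes tested for an array standing apart among the 4 SPI arrays, 3 had one by Dixon's criterion, which chance meets in about 1 group in 20. Psmb2 had a log2 signal of 10.46 on SPI 4, while the other SPI arrays lay between 11.01 and 11.05; its signals were 1412 there and 2068 to 2127 on the others. Psmc3 had a log2 signal of 10.31 on SPI 2, with 10.45 to 10.48 on the others. Psmg1 had a log2 signal of 9.06 on SPI 4, with 9.39 to 9.45 on the others. SPI 4 is also the array with the highest beta-actin 3′ to 5′ ratio, 7.77, whose part in the Psmb2 and Psmg1 values there was not tested.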

How the results depend on the processing

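Over 21 alternatives, 0 of the 40 genes had an adjusted p under 0.05 in any comparison or in the F test. The median log2 difference of the genes lay between 0.01 (without CAS 2) and 0.13 (without CAS 3) for SPI minus CAS, with every value positive. It lay between -0.03 and 0.12 for GEN minus CAS, where the sign was not stable. For SPI minus GEN it ran from -0.0612 (without GEN 1) to 0.0620 (without GEN 5) when arrays were left out one at a time, and up to 0.09 otherwise. The cause of the shift without GEN 1 was not tested. Without GEN 1, 5 of 40 genes had an unadjusted p under 0.05 for GEN minus CAS and 5 for SPI minus GEN, where 7.43% and 10.3% of all tested probe sets did. Centring arrays on their median moved the median of all genes to 0.06 for SPI minus CAS and 0.07 for SPI minus GEN, with 31 and 30 of 40 genes positive. Psmc4 had an unadjusted p under 0.05 in 17 of 21 alternatives for SPI minus CAS and 12 of 21 for GEN minus CAS, and Psmc2 in 12 of 21 for SPI minus GEN. Of 898 recomputed differences of named genes 27 changed sign, and 0 were called.

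With the replicate number as a block the medians were 0.01 for SPI minus CAS, -0.03 for GEN minus CAS and 0.01 for SPI minus GEN, with 21 of 40 genes positive for SPI minus CAS and 0 calls. Over the probe sets, 1 of 6 pairs of arrays with the same number had a correlation over 0.1 (range -0.18 to 0.16). The 27 other pairs ranged from -0.40 to 0.30. Over the proteasome genes SPI 5 and GEN 5 correlated at 0.41, and the other same-number pairs at -0.08 to 0.04. So few pairs cannot settle whether arrays of 1 number belong together, and the main fit did not pair them.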
